A study of Mus musculus with 6 samples.

Results

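The genes of mitochondrial protein import were taken as every gene of the expression table whose symbol is Timm or Tomm followed by a digit, together with Pam16, Dnajc19, Grpel1, Hspa9, Samm50, Mtx1, Mtx2, Pmpca, Pmpcb, Chchd4, Oxa1l, Romo1, Hspd1 and Hspe1. This rule found 36 genes of the 12125 in the table and used no expression value. RNA-seq had been carried out on 6 single morulae at embryonic day 2.5 from an outbred background, to ask how loss of Rbpj changes the transcriptome before the blastocyst forms. Rbpj encodes the DNA-binding partner of the intracellular Notch domain. 3 embryos were Rbpj-/-, homozygous for a null allele, and 3 were controls, of which 2 were wildtype and 1 was a heterozygote that carried the null allele once. The sample titles carry the number 808 or 810, which is read here as the litter. The study's text gives no litters for these embryos. All 3 controls and 2 Rbpj-/- embryos (numbers 6 and 7) came from litter 808. The remaining Rbpj-/- embryo (number 4) was the only embryo of litter 810. Its genotype, its litter and any batch that goes with that number cannot be told apart.

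Most mitochondrial proteins are made in the cytosol from nuclear genes and enter through the TOM complex of the outer membrane. Presequence-carrying precursors then pass the TIM23 complex, pulled by the PAM motor, and are trimmed by the processing peptidase and folded in the matrix. Other precursors are handed to small TIM chaperones, to the TIM22 carrier translocase, or to the SAM, MIA and OXA machineries for the outer membrane, the intermembrane space and export into the inner membrane.

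Expression is given as the deposited normalised value, CPM (reads per unit of library size) after TMM scaling (trimmed mean of M-values). Rbpj was at 37.0, 111 and 96.9 in the controls, with the heterozygote given first here and below, at 10.5 and 24.3 in Rbpj-/- embryos 6 and 7, and at 1.32 in embryo 4. The study had used Rbpj and Neo reads to genotype the embryos, so this level is no independent check of the labels. The libraries held 2962425 and 4330126 reads in the mutants of litter 808, 10064016 in the mutant of litter 810 and 12690030 to 14585313 in the controls, and 3 reads corresponded to a value of 0.201 to 1.09, which covers counting error only. All 9 morula markers examined were in the table, with sums of 3712 to 3985 in the controls and 4394 to 6617 in the mutants, and none of 8 cumulus cell markers was. The morula list holds Cdx2, Gata3 and Sall4, which the study reported as lower in Rbpj-/- morulae, and Dppa3, reported as higher. The sums thus do not show how single markers changed. Of 7 blood markers 5 were present, with a sum of 7305 in the mutant of litter 810, 210 and 41.5 in the other mutants, and 1109.8, 5.39 and 5447 in the controls. Oviduct markers (4 of 5 present) summed to 13.5 to 137. Their part in the results below was not tested, and in whole embryos fewer cells of a type and less RNA per cell cannot be told apart.

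Within litter 808, transcripts of the import machinery were on balance more abundant in the Rbpj-/- morulae. 11 of the 36 import genes rose and 1, Pmpca, fell, and 24 did not pass the test (limma on log2(value + 1) with litter in the design, adjusted p below 0.05). Over all 12099 genes tested, 5.85% were called higher and 11.3% lower. The median log2 fold change was 0.71 over the import genes and −0.16 over all genes, with 29 import genes above 0 and 7 below. The genes that rose were Timm13, Timm10, Tomm5, Tomm20, Tomm7, Timm17a, Timm17b, Timm23, Dnajc19, Grpel1 and Mtx2, which spans the receptor complex, the small TIM chaperones, the presequence translocase, its motor and the sorting machinery. With reads recovered from the deposited values, edgeR called 8 of these 11 genes and none lower (4.75% of all genes higher, 7.88% lower), and DESeq2 called 18 genes higher, all 11 among them, and 1 lower (10.5% and 14.2%).

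The calls rest on 2 mutant and 3 control embryos. Without mutant embryo 6, 3 import genes remained higher (Timm17a, Timm23 and Tomm20; 1.69% of all genes higher and 7.09% lower), without control 3 only Timm13 did (0.62% and 3.36%), without control 4 Mtx2 and Tomm5 did (1.04% and 4.45%), and without control 1, the heterozygote, none was called (0.959% and 3.92%). None was called lower in any of these fits, nor in either direction without the variance trend (0.141% and 2.07%), and at an unadjusted p below 0.05 they gave 12 to 18 higher and 1 to 3 lower import genes, where 9.41% to 9.97% of all genes were higher and 15.9% to 19.1% lower. Without mutant embryo 7 the calls were 12 higher and 2 lower (6.48% and 13.2% of all genes).

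**Figure D1:**
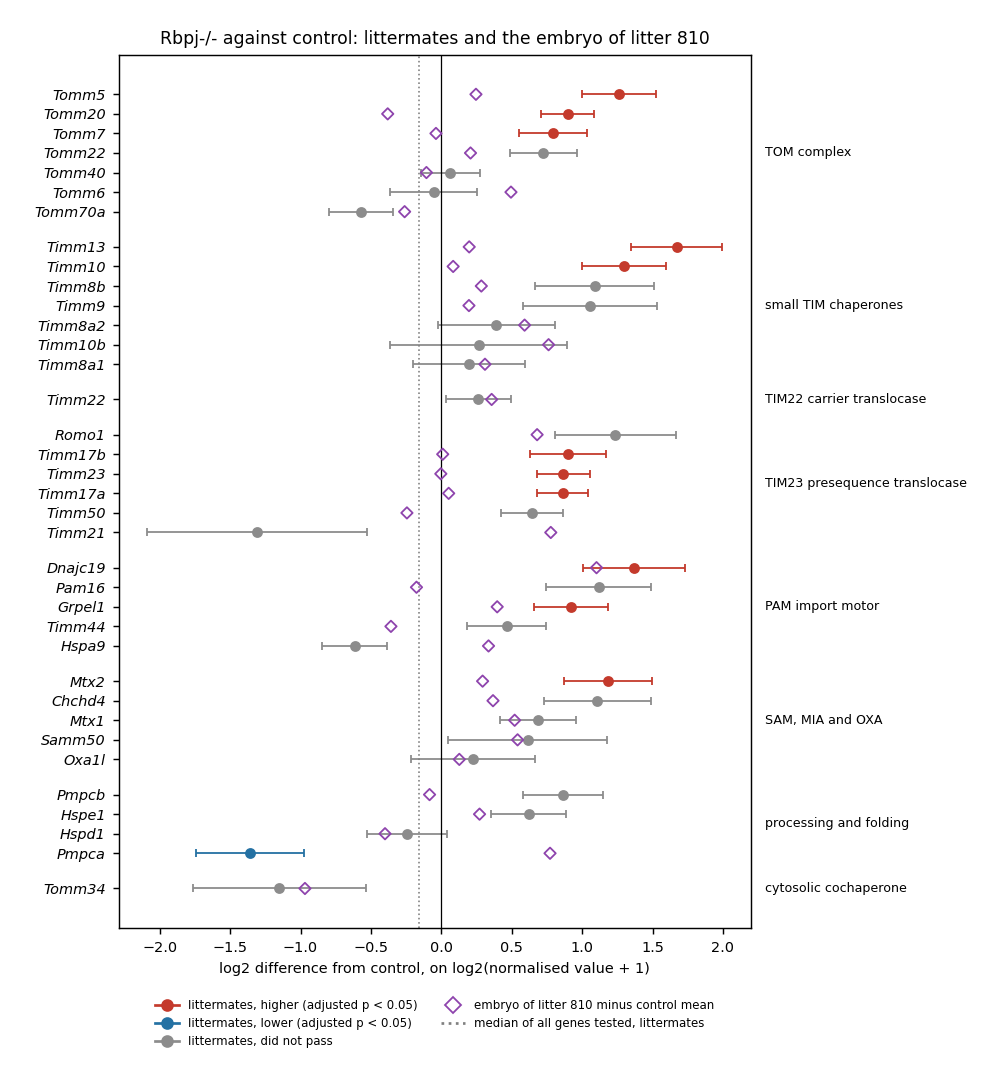
Difference from control on the log2(normalised value + 1) scale for each of the 36 import genes, by role. Filled circles with bars are the littermate log2 fold changes ± SE (2 Rbpj-/- and 3 control embryos of litter 808, limma), red and blue where the adjusted p was below 0.05, and open diamonds are the 1 embryo of litter 810 minus the control mean; the dotted line is the median of all genes tested, −0.16. Most circles lie to the right of 0, and most diamonds lie nearer to 0 than the circles.

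Summed over all 36 genes, the normalised values were 9855 and 9038 in the mutants of litter 808, 6607 in the mutant of litter 810, and 6470.0, 6117 and 6218 in the controls. The mutants of litter 808 thus lay clear of the controls, and the third mutant lay just above them. In 22 import genes both mutants of litter 808 were above all controls, and in 4 both were below, where 21.2% and 27% of all genes tested showed the same. When the reads of every embryo were thinned to 2962425, 10 of the 36 genes were called higher and 1 lower (5.65% and 11% of all genes). Thinning matched the total reads only.

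Over all 6 embryos, with genotype alone in the design, none of the 36 genes passed the test by limma or by edgeR, as for all 12099 genes (0% called in either direction). At an unadjusted p below 0.05, 7 import genes were higher and 0 lower by limma, where 5.03% of all genes were higher and 11.4% lower. These counts were 8 and 0 by edgeR (5.28% and 7.43% of all genes) and 12 and 0 by DESeq2 (8.41% and 8.74%), and DESeq2 called 1 gene, Dnajc19, higher after adjustment (1.12% of all genes higher and 1.85% lower). The median log2 fold change was 0.53 over the import genes and −0.11 over all genes, and 30 of the 36 values were above 0. The lowest adjusted p was 0.186, that of Dnajc19. All 3 mutants were above all 3 controls in Dnajc19, Grpel1, Chchd4, Mtx1, Romo1, Tomm22, Tomm5 and Hspe1, 8 genes, and below them in Tomm70a alone, while 8.91% and 12.8% of all genes did so. For any one of these 9 genes an exact two-sided permutation test over the 6 embryos gives p = 0.1, the smallest that 3 against 3 allows.

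The mutant of litter 810 stood nearer to the controls. Its median difference from the control mean was 0.23 on the log2 scale over the import genes and 0.02 over all genes, against 0.85 and 0.62 for embryos 6 and 7 of litter 808. It was above all controls in 16 import genes, below them in 6 and within their range in 14, where 29.1% of all genes were above and 29.6% below. The difference between mutants of the litters, tested as the litter term of the same model, passed for 1 import gene, Tomm20 (1.83% of all genes were higher and 0.636% lower in litter 810). Since litter 810 holds 1 embryo, this term takes its spread from the embryos of litter 808 alone and assumes that the lone embryo varies like them. In 5 import genes, Hspa9, Timm44, Timm21, Tomm20 and Pmpca, the mutants of the litters lay beyond opposite ends of the control range, as in 9.78% of all genes.

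**Figure D2:**
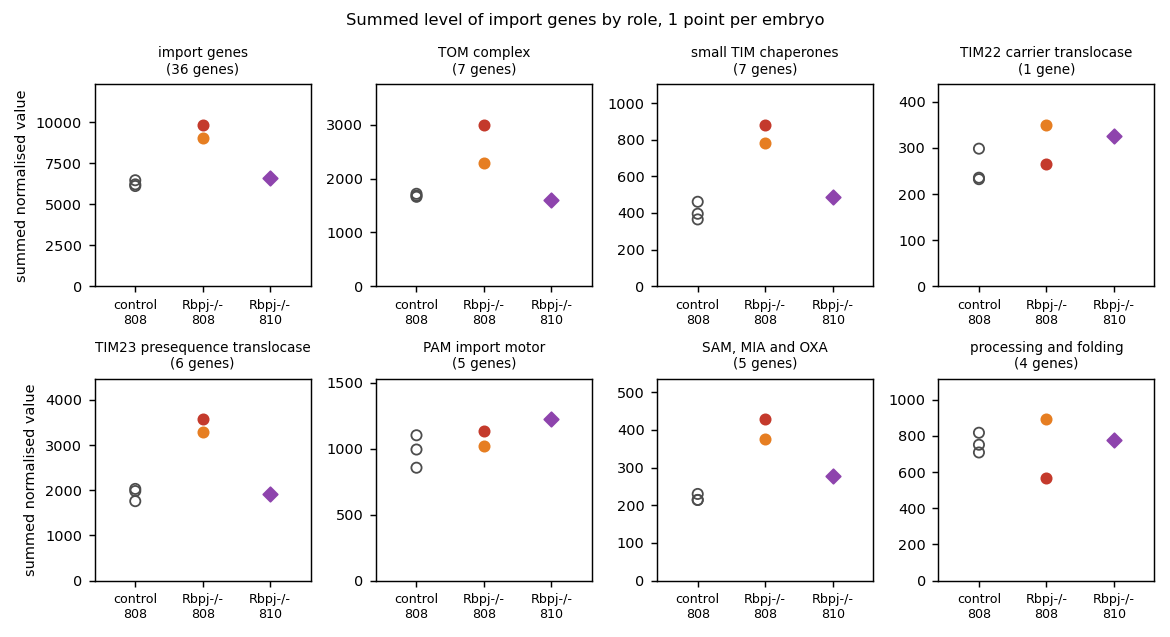
Summed normalised values of the import genes, in all and for each role with its number of genes, 1 point per embryo, on linear axes from 0. Open circles are the 3 controls of litter 808, red and orange circles are Rbpj-/- embryos 6 and 7 of litter 808, and diamonds are the Rbpj-/- embryo of litter 810. The mutants of litter 808 lie above all controls in the total and in the TOM, small TIM, TIM23 and SAM, MIA and OXA sums, and on either side of them in the sum for processing and folding.

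In the outer membrane TOM complex, 3 of 7 genes rose (5.85% of all genes tested were called higher and 11.3% lower). The median log2 fold change was 0.73. Tomm20, the presequence receptor (chr8:126930667-126945844, GRCm38, minus strand), was at 1041 and 872 in the mutants of litter 808, at 392 in the mutant of litter 810, and at 511, 520.5 and 501 in the controls, an order kept in all lists of values below. The littermate log2 fold change was 0.90 ± 0.19 (SE, adjusted p = 0.0140), and the controls lay close together. The mutant of litter 810 was below every control, and the mutants of the litters differed by −1.28 on the log2 scale (adjusted p = 0.0374). Tomm5 (chr4:45105208-45108114, minus strand), a small subunit that stabilises the complex, was at 744 and 450.1, at 286, and at 206, 247 and 275, and rose by 1.26 ± 0.26 (adjusted p = 0.0133). All 3 mutants were above all controls, with embryo 6 highest. Tomm7 (chr5:23838944-23844161, minus strand), another small subunit, was at 268 and 220.3, at 136, and at 163, 135 and 124, and rose by 0.79 ± 0.24 (adjusted p = 0.0497), close to the threshold.

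The rest of the complex did not pass. Tomm40, the β-barrel channel of the complex, was at 305 and 251, at 246, and at 279.6, 259 and 256, a log2 fold change of 0.06 ± 0.21 (adjusted p = 0.869) with overlapping groups. Tomm22, the central receptor, was higher in all 3 mutants (399 and 269, 228, against 208, 187 and 199), but its log2 fold change of 0.73 ± 0.24 had an adjusted p of 0.0639. Tomm70a, the receptor for carrier precursors and the longest gene of the complex by coding sequence (1833 bases), was at 178 and 183, at 224, and at 225, 279 and 310.1, so that all mutants were below all controls by a small margin (−0.57 ± 0.23, adjusted p = 0.114). Tomm6 had a littermate log2 fold change of −0.05.

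Some ratios between subunits of the complex also lay apart from the controls in litter 808. The ratio of Tomm20 to Tomm70a, with each value divided by the length of its coding sequence, was 24.6 and 20.1 in the mutants of litter 808, 7.36 in the mutant of litter 810 and 9.55, 7.86 and 6.81 in the controls. The ratio of Tomm40 to Tomm22 was 0.301 and 0.367, 0.423, and 0.529, 0.545 and 0.507, below all controls in every mutant. Such ratios do not depend on how libraries are scaled, but they do compare genes of unlike length, and no test was made on them. Pairs were chosen by role, and other pairs of genes were not examined. Of those not shown, Timm10 to Timm9, Dnajc19 to Pam16, Mtx1 to Mtx2 and Timm8a1 to Timm8a2 overlapped between litter 808 mutants and controls. Tomm40 to Tomm5, Timm23 to Timm50, and Timm13 to Timm8a1 or Timm8b lay apart.

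Among the small TIM chaperones of the intermembrane space, which shield hydrophobic precursors, all 7 fold changes were above 0 and 2 passed. Over all genes tested, 5.85% were called higher and 11.3% lower. The median coding length of the group was 285 bases. Among all genes with coding sequences of 69 to 723 bases, the median log2 fold change was 0.61 and 18.5% were called higher. Timm13 (chr10:80899450-80900969, minus strand), partner of the Timm8 proteins, had the largest change of all import genes. It was at 301 and 223 in the mutants of litter 808, at 92.8 in the mutant of litter 810, and at 62.2, 119 and 71.2 in the controls (1.67 ± 0.32, adjusted p = 0.0106). Timm10 (chr2:84826997-84830213, plus strand), which forms a hexamer with Timm9, was at 295 and 168, at 95.3, and at 91.9, 77.9 and 102 (1.30 ± 0.30, adjusted p = 0.0194). For both genes the mutant of litter 810 was inside the range of the controls.

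Timm9 and Timm8b were above all controls in both mutants of litter 808 but did not pass. Timm9 was at 29.4 and 35.6, at 17.4, and at 15.1, 19.2 and 11.7 (1.05 ± 0.48, adjusted p = 0.160), and Timm8b at 69.3 and 56.3, at 35.3, and at 40.3, 32.6 and 18.1 (1.09 ± 0.42, adjusted p = 0.108). Timm8a1, on the X chromosome, had the highest mean level of the group per kilobase of coding sequence in the controls (478). Its values were 95.1 and 259.9, 170.3, and 131, 172 and 114, and the mutants of litter 808 fell on either side of the controls. Timm8a2, a close relative of Timm8a1 with which reads may be shared, and Timm10b, which docks the chaperones on the inner membrane, had littermate log2 fold changes of 0.39 and 0.26. The channel these chaperones feed, Timm22, was at 264 and 350.3, at 325, and at 298, 235 and 232 (0.26 ± 0.23, adjusted p = 0.479).

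In the TIM23 presequence translocase, 3 of 6 genes rose, and they were its channel-forming subunits (5.85% of all genes were called higher and 11.3% lower). Timm23 (chr14:32180162-32201898, minus strand), the channel, was the most abundant import transcript per kilobase of coding sequence in the controls, with a mean of 1497. Its values were 1789 and 1623 in the mutants of litter 808, 932 in the mutant of litter 810, and 1019, 824 and 972 in the controls (0.87 ± 0.19, adjusted p = 0.0154). Timm17a (chr1:135295213-135313778, minus strand), which lines the import path with Timm23, was at 1053 and 963, at 574, and at 517, 563 and 583 (0.86 ± 0.18, adjusted p = 0.0150). Its X-linked paralogue Timm17b (chrX:7899357-7908351, plus strand) was at 179 and 239, at 112, and at 139, 102 and 95.9 (0.90 ± 0.27, adjusted p = 0.0495).

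In these 3 genes both mutants of litter 808 were above all controls and the mutant of litter 810 was among them. The ratio of Timm17a to Timm17b per base of coding sequence, 5.91 and 4.04, 5.18, and 3.74, 5.56 and 6.12, overlapped between the groups. Timm50, the receptor that gates the channel, was at 475 and 427, at 242, and at 318, 237 and 314 (0.65 ± 0.22, adjusted p = 0.0727). Romo1, the counterpart of yeast Mgr2, was higher in all mutants (73.3 and 47.2, 39.7, and 32.1, 27.8 and 16.2), with a log2 fold change of 1.24 ± 0.43 and an adjusted p of 0.0786. Timm21, which links the translocase to TOM, was scarce, at 2.54 and 0.246, at 7.91, and at 5.23, 5.12 and 2.68, and the value of 0.246 stood for 1 read.

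**Figure D3:**
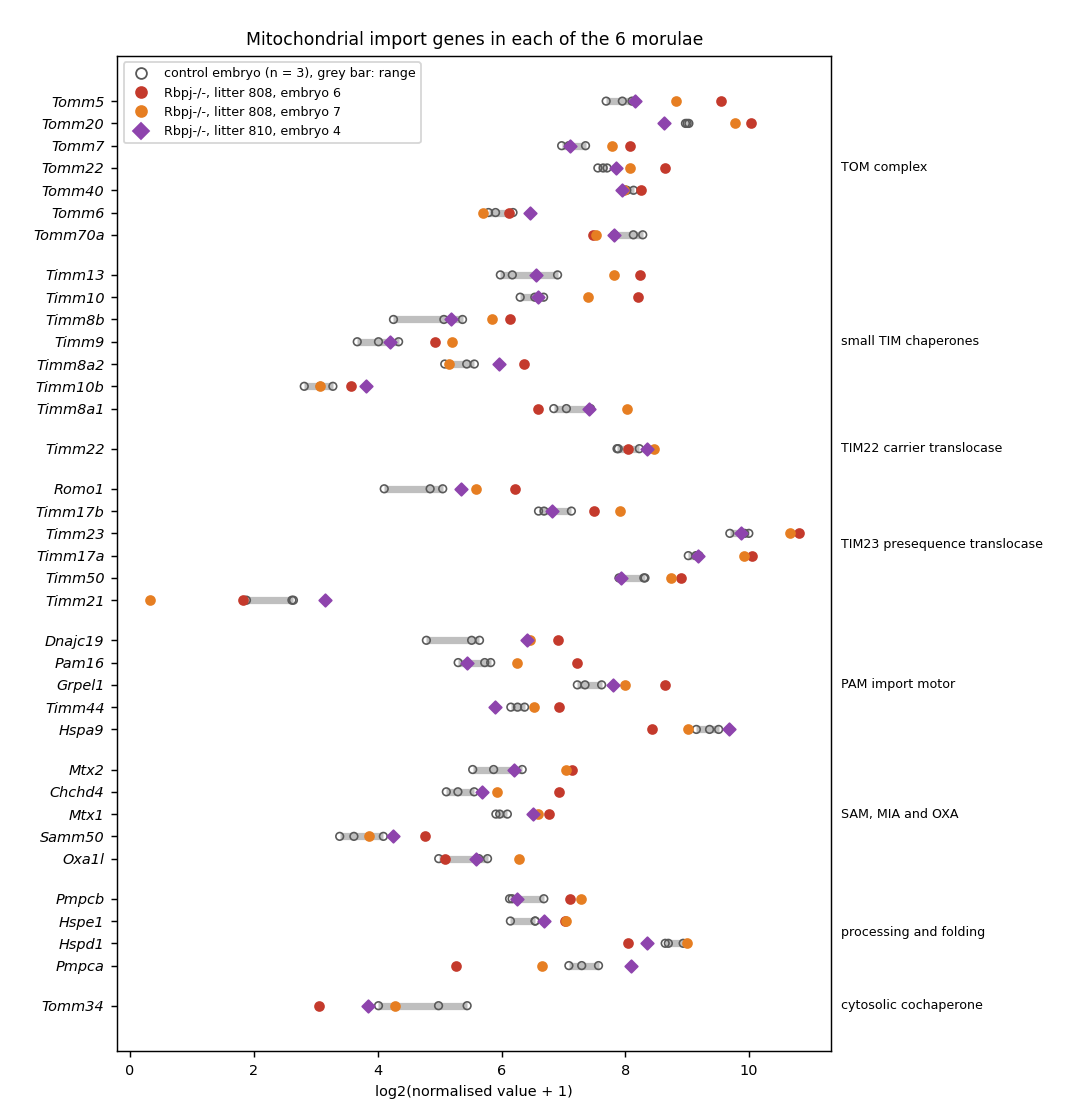
Each of the 36 import genes in each of the 6 morulae, on the log2(normalised value + 1) scale, grouped by role. Open circles are controls with the grey bar as their range, red and orange circles are Rbpj-/- embryos 6 and 7 of litter 808, and violet diamonds are the Rbpj-/- embryo of litter 810. In 22 genes both circles of litter 808 lie to the right of the grey bar, and in 14 genes the diamond lies within it.

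The PAM import motor was split. Dnajc19 (chr3:34056020-34081321, minus strand), the J protein that stimulates the motor's ATPase, was the only import gene more than 1 log2 unit above the control mean in each of the 3 mutants. It was at 119 and 86.8 in the mutants of litter 808, at 84.5 in the mutant of litter 810, and at 44.8, 49.0 and 26.6 in the controls. The littermate log2 fold change was 1.37 ± 0.36 (adjusted p = 0.0305), and the mutant of litter 810 was 1.10 above the control mean on the log2 scale. Dnajc19 shares 178 exon bases with Fxr1 on the opposite strand and the kit does not keep strand. Fxr1 had a log2 fold change of 0.77 (adjusted p = 0.114).

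Grpel1 (chr5:36464998-36474080, plus strand), the nucleotide exchange factor of the motor, was also higher in every mutant, at 399.6 and 253, at 221, and at 195, 162 and 149 (0.92 ± 0.26, adjusted p = 0.0399). Hspa9, the mitochondrial HSP70 that pulls the precursor, lay the other way in litter 808, at 345 and 515, at 816, and at 727, 656 and 566 (−0.62 ± 0.23, adjusted p = 0.0963). The ratio of Hspa9 to Grpel1 per base of coding sequence was 0.276 and 0.651 in the mutants of litter 808, 1.18 in the mutant of litter 810, and 1.19, 1.29 and 1.22 in the controls. Pam16, the J-like partner of Dnajc19, was at 148 and 75.0, at 42.4, and at 52.0, 55.7 and 38.4 (1.12 ± 0.37, adjusted p = 0.0674). Timm44, the anchor of the motor, had a littermate log2 fold change of 0.46 ± 0.28 (adjusted p = 0.285).

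Of the 5 genes of the SAM, MIA and OXA machineries, all had fold changes above 0 and 1 passed. Over all genes tested, 5.85% were called higher and 11.3% lower. Mtx2 (chr2:74825803-74878431, plus strand), which works with Samm50 in inserting outer membrane proteins, was at 140.5 and 131, at 72.8, and at 45.3, 57.6 and 79.7 (1.18 ± 0.31, adjusted p = 0.0309). Its partner Mtx1 was higher in all 3 mutants, at 108 and 95.1, at 90.3, and at 67.3, 61.7 and 59.1 (0.69 ± 0.27, adjusted p = 0.114). Chchd4, the oxidoreductase that traps the small TIM proteins in the intermembrane space, was at 121 and 60.0, at 50.5, and at 38.3, 46.1 and 33.5 (1.11 ± 0.38, adjusted p = 0.0744). Samm50 itself was low, at 26.1 and 13.5, 17.9, and 9.45, 16.0 and 11.3, and its groups overlapped. Oxa1l, the insertase of the inner membrane, had a log2 fold change of 0.22.

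Pmpca was the only import gene that fell. It encodes the α subunit of the mitochondrial processing peptidase, which removes presequences together with the catalytic β subunit encoded by Pmpcb. Pmpca (chr2:26389339-26397122, plus strand) was at 37.4 and 99.3 in the mutants of litter 808, at 271 in the mutant of litter 810, and at 189, 156 and 135 in the controls (−1.36 ± 0.38, adjusted p = 0.0389). Pmpcb was at 136 and 155, at 74.8, and at 71.1, 69.0 and 102 (0.87 ± 0.28, adjusted p = 0.0643). The subunits thus went apart, and their ratio per base of coding sequence was 0.256 and 0.598, then 3.38, against 2.48, 2.11 and 1.24. The mutants of litter 808 were below every control and the mutant of litter 810 above every control. The fall of Pmpca did not pass with edgeR (adjusted p = 0.0953, 0.00494 to 0.170 over 20 alternatives), and 874 of its exon bases are shared with Inpp5e on the opposite strand, which was at 0 to 7.91 in all embryos.

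The matrix chaperonin genes, Hspd1 (HSP60) and Hspe1 (HSP10), lie head to head and share 112 exon bases. Hspe1 was at 129 and 130.3, at 102, and at 92.2, 69.7 and 92.3 (0.62 ± 0.27, adjusted p = 0.140). Hspd1 was at 262 and 507, at 327, and at 399, 413 and 488 (−0.24 ± 0.28, adjusted p = 0.599). The ratio of Hspd1 to Hspe1 per base of coding sequence was 0.361 and 0.693, 0.573, and 0.770, 1.06 and 0.941, lower in every mutant than in every control. The annotation holds 5 named pseudogenes of Hspd1 and 6 of Hspe1 that could take or give reads, none of them in the table. Tomm34, a cytosolic cochaperone of HSP70 and HSP90, was at 7.26 and 18.4, at 13.4, and at 15.1, 42.5 and 30.6, with overlapping groups (−1.15 ± 0.62, adjusted p = 0.232).

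Short coding sequences were common among the import genes, with a median of 514.5 bases against 1353 for all genes tested, and differences in litter 808 went with that length over the whole table. Among the 2195 genes with the shortest coding sequences (69 to 723 bases) the median littermate log2 fold change was 0.61 and 18.5% were called higher, and among the 2195 with the longest (2442 bases and more) it was −1.19 and 0.364% were. Of the 36 import genes 22 were in the shortest class, and 10 of these 22 rose, with a median of 0.90. No import gene was in the longest class. Spearman's rho between coding length and the littermate log2 fold change was −0.50 across the 36 import genes and −0.51 across 10975 genes, which share libraries and are no independent replicates. In the mutant of litter 810 rho was −0.20 and −0.17.

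Removing a loess trend on coding length within every embryo was a choice made after seeing the data. With it 0 import genes were called higher and 1, Tomm6, lower by limma (1.15% and 6.92% of all genes), with 3 higher and 4 lower at an unadjusted p below 0.05 (5.7% and 17.6% of all genes). The median log2 fold change of the import genes was then 0.11, against −0.23 over all genes. By role it was −0.19 for TOM, 0.02 for the small TIM genes, 0.16 for TIM23 and 0.32 for the motor. It was 0.63 for SAM, MIA and OXA and −0.19 for processing and folding, and Timm22 was at −0.41 and Tomm34 at −1.53. With the trend on the longest transcript removed instead, 5 genes were higher, namely Grpel1, Mtx2, Pmpcb, Timm17a and Tomm20 (2.89% of all genes higher and 6.7% lower). The 4 import genes with the longest coding sequences (Hspa9, Tomm70a, Hspd1 and Pmpca, 1572 to 2037 bases) had littermate log2 fold changes below 0. The length class of 1131 to 1599 bases, where the median of all genes was −0.19, held 6 import genes. Of these Pmpca was at −1.36, and Oxa1l, Timm44, Mtx1, Samm50 and Pmpcb, of 1299 to 1467 bases, had values above 0 but did not pass the littermate test. What part length has in the results was not tested beyond these fits.

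**Figure D4:**
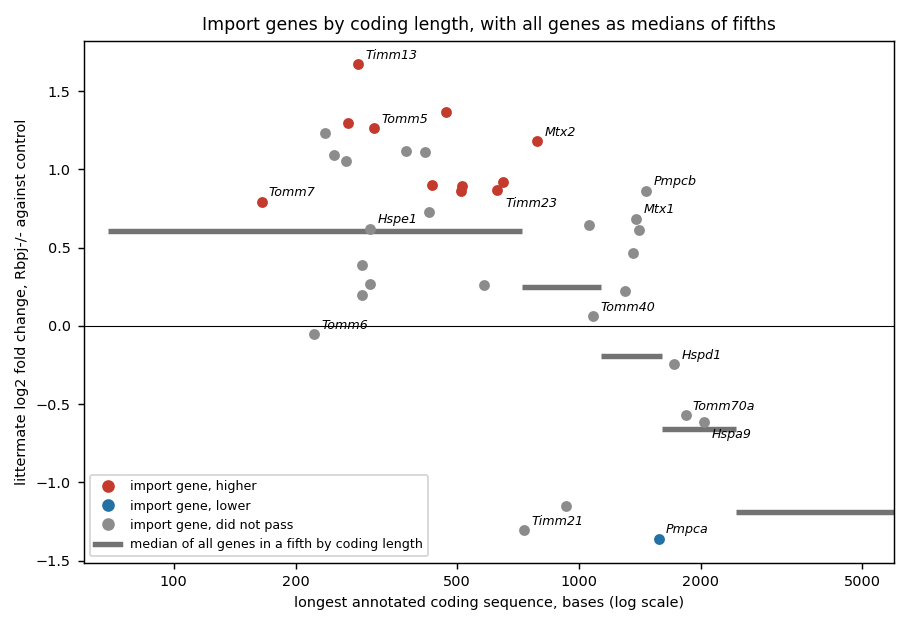
Littermate log2 fold change of each of the 36 import genes (2 Rbpj-/- against 3 control embryos of litter 808, linear axis) against its longest annotated coding sequence in bases (log axis), with some genes named. Red points rose, the blue point fell and grey points did not pass the test; grey bars are the medians of all genes in 5 equal classes by coding length, from 0.61 in the shortest to −1.19 in the longest. The import genes sit mostly over the shortest class, which holds 22 of them.

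Promoter windows from RefSeq (GRCm38.p6, 250 bases before to 50 after the start site) were found for 33 of the 36 genes, all but Hspa9, Timm21 and Tomm7, and were searched on both strands for 5 short motifs. The RBPJ core TGGGAA was present in 11 of the 33 genes (33.3%) and in 26.0% of the 8572 genes of the table with a window. The longer GTGGGAA, which contains that core, was in 5 (15.2%, against 6.91%). CCGGAAG, the core bound by GABPA and other ETS factors, was in 16 (48.5%, against 21.4%). AAGATGGCG, the YY1 motif, was in 3 (9.09%, against 3.86%), and GCGCATGCG, the NRF1 motif, was in Timm13 only (3.03%, against 4.48%). Over the genes of the table, 5.89% of those with the RBPJ core and 5.59% of those without it were called higher in the littermate comparison. For the GABPA motif these shares were 8.13% and 4.99%. Within the import genes, 4 of the 16 with the GABPA motif rose and 1 fell, and 6 of the 17 without it rose. Their median littermate log2 fold changes were 0.71 with the GABPA motif and 0.86 without. A match is only a run of letters, and binding was not measured.

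The 120 bases before the start site are shown for 8 of the genes that were called, to set windows with matches beside windows without. Capitals mark matches to the 5 motifs on either strand, and each is written 5′ to 3′ on the strand of its gene.
Timm23 (chr14:32201892-32202011, minus strand): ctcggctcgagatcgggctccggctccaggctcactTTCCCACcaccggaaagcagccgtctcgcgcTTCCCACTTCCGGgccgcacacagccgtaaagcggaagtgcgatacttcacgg
Timm10 (chr2:84826901-84827020, plus strand): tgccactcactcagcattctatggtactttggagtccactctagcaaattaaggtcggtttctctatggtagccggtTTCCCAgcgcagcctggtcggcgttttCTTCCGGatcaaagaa
Timm13 (chr10:80900970-80901089, minus strand): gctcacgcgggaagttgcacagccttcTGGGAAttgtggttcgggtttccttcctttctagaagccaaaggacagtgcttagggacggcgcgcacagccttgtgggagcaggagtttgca
Grpel1 (chr5:36465065-36465184, plus strand): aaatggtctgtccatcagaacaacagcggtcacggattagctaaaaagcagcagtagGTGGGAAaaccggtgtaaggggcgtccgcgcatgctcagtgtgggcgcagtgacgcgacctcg
Mtx2 (chr2:74825692-74825811, plus strand): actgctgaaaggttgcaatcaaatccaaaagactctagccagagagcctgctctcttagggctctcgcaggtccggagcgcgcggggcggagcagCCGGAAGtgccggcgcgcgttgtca
Pmpca (chr2:26389228-26389347, plus strand): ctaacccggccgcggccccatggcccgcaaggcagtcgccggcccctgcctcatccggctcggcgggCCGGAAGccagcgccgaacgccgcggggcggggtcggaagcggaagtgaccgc
Tomm20 (chr8:126945922-126946041, minus strand): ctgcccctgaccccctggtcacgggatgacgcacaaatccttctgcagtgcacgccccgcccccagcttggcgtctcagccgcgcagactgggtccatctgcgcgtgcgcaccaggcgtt
Timm17a (chr1:135313738-135313857, minus strand): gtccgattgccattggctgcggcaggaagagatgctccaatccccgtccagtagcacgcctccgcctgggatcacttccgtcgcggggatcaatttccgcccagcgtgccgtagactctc

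In the bases shown, Timm23 carries GTGGGAA in reverse at −84 and again at −53, where it shares a base with CCGGAAG in reverse. Timm10 holds a reversed RBPJ core at −43 and a reversed GABPA match at −16, Timm13 an RBPJ core at −93, and Grpel1 the motif GTGGGAA at −63. Mtx2, which rose, and Pmpca, which fell, have GABPA matches alone, at −25 and −53. Tomm20 and Timm17a have none of the motifs in these bases. The same holds for Dnajc19, Timm17b and Tomm5, which were also called but whose bases are not shown. Of the 11 import genes with the RBPJ core in the whole window 4 rose (Grpel1, Timm10, Timm13 and Timm23), and of the 22 without it 6 rose. Median littermate log2 fold changes of these import genes were 1.05 with the core and 0.63 without. Over the genes of the table with a window they were −0.17 with it and −0.22 without. The difference was not tested.

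Several import genes start next to another gene on the opposite strand, and the neighbour could be followed in 9 such pairs. Timm23 and Parg, which encodes the enzyme that degrades poly(ADP-ribose), start 51 bases apart. Parg was at 94.7 and 131 in the mutants of litter 808, at 302 in the mutant of litter 810, and at 284, 305 and 362 in the controls, and fell (−1.49 ± 0.24, adjusted p = 0.00504) where Timm23 rose. Pmpca and Entr1 start 23 bases apart, and Entr1 had a log2 fold change of −0.05 (adjusted p = 0.935) where Pmpca fell. The start of Timm8b lies 98 bases from that of Sdhd, a subunit of succinate dehydrogenase, which was at 70.4 and 134, at 62.3, and at 37.0, 48.1 and 42.3 and rose (1.18 ± 0.36, adjusted p = 0.0491). Timm17b and Pqbp1, 88 bases apart, had log2 fold changes of 0.90 and 0.30, and only Timm17b passed. In the remaining pairs neither gene passed. These were Chchd4 with Tmem43, Romo1 with Nfs1, Timm10b with Arfip2, Timm9 with 2700049A03Rik, and Hspd1 with Hspe1. Coding length, with which differences in litter 808 went over the whole table, was not taken into account for these pairs, and its part was not tested.

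Other genes of mitochondrial import and quality control gave a mixed picture in the littermate comparison. Of 15 further import and presequence processing genes 2 passed, both higher (5.85% of all genes tested were higher and 11.3% lower), and the median log2 fold change was 0.10. These were Dnajc15, a paralogue of Dnajc19 (401 and 226, 93.1, and 107, 92.4 and 115, log2 fold change 1.52, adjusted p = 0.00988), and Mtch2, in human cells an insertase of the outer membrane (451 and 506, 210.0, and 221, 304 and 232, log2 fold change 0.93, adjusted p = 0.0222). Pitrm1, which degrades cleaved presequences, was at 5.44 and 6.15, at 48.7, and at 26.9, 21.5 and 12.3 (−1.58, adjusted p = 0.0808). As with Pmpca, the mutants of litter 808 were below all controls and the mutant of litter 810 was above them.

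Of 15 genes for MICOS, which shapes the cristae, and for mitochondrial proteases, 3 rose and 2 fell (5.85% and 11.3% of all genes). The matrix protease Lonp1 was at 75.9 and 61.5, at 214, and at 277, 208 and 267, and fell by 1.85 on the log2 scale (adjusted p = 0.00259). Clpp, the proteolytic subunit of the other soluble matrix protease, was at 388 and 407, at 169, and at 183, 169 and 160.0, and rose by 1.22 (adjusted p = 0.00659). Parl, a rhomboid protease of the inner membrane, rose by 1.26 (adjusted p = 0.0254). The littermate log2 fold changes of 8 mitochondrial stress response genes ran from −0.69 to 1.20 with a median of 0.19, with Mthfd2 at 1.20 (adjusted p = 0.247), Shmt2 at −0.69 (adjusted p = 0.404) and Trap1 at 0.32 (adjusted p = 0.527).

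Among 13 genes of outer membrane channels and of regulators of mitochondrial biogenesis, 2 rose and 3 fell (5.85% and 11.3% of all genes). Pprc1, a coactivator of the PGC-1 family, was at 47.2 and 42.3, at 263, and at 275, 299 and 426 (−2.84, adjusted p = 0.000731). Esrra, the oestrogen-related receptor that such coactivators work with, was at 7.99 and 5.16, at 18.8, and at 30.0, 35.7 and 32.8 (−2.18, adjusted p = 0.0179), and every mutant was below every control. Vdac3, a porin of the outer membrane, was at 323 and 286, at 165, and at 144, 128 and 174 (1.04, adjusted p = 0.0177). Pprc1, Lonp1 and Pitrm1, with coding sequences of 4938, 2847 and 3108 bases, belong to the longest class. In that class the median log2 fold change was −1.19 and 30.6% of all genes were called lower. The coding sequences of Dnajc15, Clpp and Vdac3, which rose, had 447, 816 and 852 bases, and that of Esrra had 1266. The part of length in these changes was not tested.

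Larger sets of nuclear mitochondrial genes were shifted in the same direction. Of 79 mitochondrial ribosomal protein genes 27 passed, all higher, with a median littermate log2 fold change of 0.96 (among the smallest p values Mrpl20 at 1.39, Mrpl55 at 1.71 and Mrpl40 at 1.20). Of 88 nuclear genes in a set of the respiratory chain and ATP synthase 44 passed, all higher, with a median of 1.02. Among them were Atp5j, an ATP synthase gene, at 1.37, Uqcrb at 1.23 and Ndufs5 at 1.32. Of all genes tested 5.85% were called higher and 11.3% lower. In the mutant of litter 810 the medians of these sets were 0.22 and 0.20, close to the 0.23 of the import genes. The difference between the sets was not tested, and the median coding lengths of the ribosomal and respiratory chain sets were 582 and 442.5 bases. With the coding length trend removed, 1 of 76 ribosomal protein genes was called higher and 0 lower. Of the 88 respiratory chain and ATP synthase genes 2 were then higher and 1 lower (1.15% and 6.92% of all genes). The medians of the 2 sets were 0.28 and 0.25 in that fit.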

How the data were processed

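The authors prepared cDNA of each embryo with a kit for ultra-low RNA input (SMART-Seq), which keeps no strand. Per the labels and the submitters' processing notes, reads were handled with CASAVA 1.8.2 and cutadapt 1.3, and quantified with RSEM 1.2.3 on the GRCm38 build. The authors deposited 1 signal value per gene and embryo, CPM after TMM scaling in edgeR, and 100% of values were whole multiples of the value of 1 read (tolerance 0.01). These reads served edgeR 4.0.16 and DESeq2 1.42.0 only as alternatives.

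The main test was limma 3.58.1 in R 4.3.3 on log2(value + 1), with a variance trend, over 12099 genes above 1 in at least 3 embryos, Benjamini-Hochberg adjustment over all of them and a threshold of 0.05. Fold changes on this scale understate those of low genes. One fit used genotype alone, as the main design, and the other added litter, so that it compared littermates. p-values measure the spread between these embryos. The fits were tested on simulated data with the same dispersion for every gene and no litter effect or length trend. That run does not measure false calls in these embryos.

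Alternatives were other pseudocounts (0.1 and 5), filters (none, or a mean of at least 10), scalings (median of ratios, quantile), array weights, no trend, length corrections (loess span 0.5), thinned reads, and each embryo left out. Every member is named or counted, with values in every embryo for those called, for the 2 with the highest mean in each role and for those with a promoter shown, and the 3 smallest p-values are named in each related list. The members and lists were chosen with earlier results of these data known. Positions come from GENCODE M21 (12019 genes matched) and promoters from RefSeq GRCm38.p6. The 113 genes with an identifier but no symbol were tested with the rest. Protein motifs were not used here. Analysis was in Python 3.11.15 with pandas 2.3.3.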

Additional observations from a re-analysis of the deposited data

Results flagged for a closer look

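In 5 import genes the mutants of the 2 litters differed, or lay beyond opposite ends of the control range, as 9.78% of all genes did. Litter 810 is 1 embryo, so its genotype, its litter and its own variation cannot be told apart. For Tomm20 the embryo of litter 810 was lower than the mutants of litter 808, with a litter term of −1.28 on the log2 scale (limma, adjusted p = 0.0374), whose spread comes from the litter 808 embryos alone. For Pmpca the difference was 2.13 (adjusted p = 0.0614), for Hspa9 0.95 (adjusted p = 0.118), for Timm44 −0.82 (adjusted p = 0.229) and for Timm21, at very low counts, 2.08 (adjusted p = 0.273), and none of these 4 passed.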

How the results depend on the processing

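No paired analysis was possible because the only replicate number the groups share, 4, joins embryos of different litters; litter itself is the term of the littermate comparison. With genotype alone, 0 genes were called over all 6 embryos except with array weights (7 higher, with 3.31% of all genes higher and 9.62% lower), DESeq2 (1 higher) and mutant 4 left out. Leaving out 1 embryo at a time gave 0 to 11 higher and 0 to 1 lower, and only the fit without mutant 4, which is the littermate set, gave any. In the littermate comparison (11 higher, 1 lower), leaving out 1 embryo gave 0 to 12 higher and 0 to 2 lower, with the most in both directions without mutant 7, and leaving out the heterozygote gave 0 and 0. The number higher was 18 with DESeq2, 7 with array weights (4.17% of all genes), 5 with the transcript length trend removed, 0 with the coding length trend removed (chosen after seeing the data) and 0 without the variance trend. The number lower was 2 with quantile scaling (7.88% of all genes) and 0 with a pseudocount of 0.1, with edgeR, with the transcript length trend removed and without the variance trend. Tomm7 turned to −0.40 with the coding length trend removed (adjusted p = 0.314), and no other called gene changed sign under any alternative. Timm13, Timm17a, Tomm20, Tomm5 and Mtx2 passed in 13 of 20 alternatives each, and Timm17b in 6. These 20 are not all distinct. Leaving out the heterozygote and leaving out control 1 are the same fit, and leaving out mutant 4 keeps the embryos of the littermate set. Quantile scaling moved the median of all genes from −0.16 to 0.10. The causes of these changes were not tested. The mutants of litter 808 had the fewest reads, and Timm21 and Samm50 rest on few of them.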
